A study of Pimephales promelas with 191 samples.

Results

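In liver of adult male Pimephales promelas, the fathead minnow, a freshwater fish of aquatic toxicology, 77 genes had their lowest mean level in the guanylurea group at every one of 4 collection times. They were taken from the 13519 genes, of 26150 in the table, with a median CPM of at least 1, and are 0.570% of those 13519. CPM is a gene's count scaled to a common library total, so it is relative to all genes of the library. A gene was a member when its guanylurea mean of log2(CPM + 0.1), with CPM taken from each library's column total, was below the means of control, metformin and mixture at 6, 24, 48 and 96 h. The genes were selected on these guanylurea levels themselves, so their lowness with guanylurea is a description and carries no test. Where 4 treatments are alike and times independent, 1 gene in 256 would meet the rule, which comes to 52.8 of 13519.

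The libraries of liver RNA fall into 16 groups of male adults. Fish were controls, or were exposed to 41 µg/L of metformin, to 100 µg/L of guanylurea, or to a mixture with both compounds at those same doses, and each treatment was collected at 6, 24, 48 and 96 h. Of these, 15 groups held 12 libraries, and guanylurea at 24 h held 11. The labels name no tank, and they do not say whether a library is 1 fish, so a p-value reflects only how these libraries vary, which may be technical. Whole liver was measured, so fewer cells of a type and less RNA per cell cannot be told apart.

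Metformin is a biguanide drug taken for type II diabetes that passes through the body largely unchanged. In mammalian hepatocytes it inhibits complex I of the mitochondrial respiratory chain, raises the activity of the energy sensor AMP-activated protein kinase and lowers glucose output. Bacteria in sewage treatment convert metformin to guanylurea, which lacks the dimethylamino group of metformin, keeps a guanidine group and persists in surface water. The liver of a fish makes plasma proteins, handles lipids and glucose, and clears foreign compounds. No role can be given to the 77 genes: 0 of the 26150 identifiers in the table matched the 64593 genes of the RefSeq table for the species (assembly fPimPro1.hap1.1), and the files pair no identifier with a name. For the same reason liver markers and markers of other cell types could not be looked up, and no sequences are shown. Of the identifiers, 4 are printed: those of the 2 members with the largest gap to the next lowest group, and those of the 2 with the smallest p among the members that rose from 6 to 96 h.

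Libraries held 12663443 to 27969948 counts, with a median of 19541432. The 10 most abundant genes of a library took 28.4% ± 3.91 (SD, n = 47) of its counts with guanylurea, against 30.1% ± 4.42 in control, 29.8% ± 3.91 with metformin and 30.1% ± 3.94 in the mixture. Over the 13519 genes the median difference between guanylurea and the mean of the other 3 treatments was -0.00, 0.11, 0.08 and 0.08 on the log2 scale at 6, 24, 48 and 96 h. Agreement, the median correlation of a library with the others of its group in log2 CPM, was low in 9 libraries, by over 5 median absolute deviations from the centre of all libraries: 4 control, 3 metformin, 2 mixture and 0 guanylurea. Without those 9 libraries the rule found 115 genes, 69 of them among the 77.

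The same rule named 79 genes as lowest in control at every time, 32 with metformin and 37 in the mixture. These counts cannot be read against each other directly, because the treatments did not share the lowest place evenly within a time. Control was lowest for 55.6% of the 13519 genes at 24 h and 59.9% at 96 h, and the mixture for 62.6% at 48 h. Guanylurea was lowest for 23.8%, 10.4%, 8.50% and 18.8% at 6, 24, 48 and 96 h. Multiplying the 4 shares of a treatment gives 5.35 genes for guanylurea, where 77 were found, 95.2 for control, where 79 were found, 18.5 for metformin, where 32 were found, and 23.7 for the mixture, where 37 were found. The product takes times as independent and genes as alike, so it is a reference point and not a test. In the opposite direction, 307 genes were highest with guanylurea at every time, where the product of the shares gives 220.2. With library sizes scaled by TMM, on which each treatment was lowest for 18.9% to 32.3% of genes at any time, the guanylurea-lowest list held 190 genes, 72 of the 77 among them. On that scale control, metformin and mixture gave 92, 103 and 124 genes, and the products were 50.7 for guanylurea, 71.0 for control, 39.4 for metformin and 48.1 for the mixture.

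Most of the 77 lay only a little below the next treatment. The gap, which is the distance on the log2 scale from the guanylurea mean to the next lowest group mean, averaged over the 4 times, had a median of 0.20 over members, with quartiles of 0.13 and 0.35. It ran from 0.04 to 1.38. The gap exceeded 1 in 2 members and 0.5 in 6, and was under 0.1 in 11. The median gap of the lists lowest in control, metformin and mixture was 0.12, 0.13 and 0.12. Set against the spread between libraries of a group, the members' gaps were small: the median gap was 0.377 of the within-group SD, 20 members passed 0.5 of an SD, and 1 passed 1 SD. The within-group SD had a median of 0.50 for members and 0.49 for all 13519 genes, with upper quartiles of 0.82 and 0.67. It was 0.99, 2.16, 0.95, 1.65 and 2.59 in the members of rank 1, 2, 3, 4 and 5 by gap, so the largest gaps were in genes of wide spread.

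The difference of guanylurea from the mean of the other 3 treatments had a median over members of -0.38 at 6 h (quartiles -0.54 to -0.28). The median was -0.34 at 24 h, -0.28 at 48 h and -0.27 at 96 h. Averaged over times, members differed by a median of -0.37 from control, -0.29 from metformin and -0.30 from the mixture. Over the 308 combinations of member and time, the next lowest treatment was control in 77, metformin in 114 and mixture in 117. Per member, 25 to 44 of the 47 guanylurea libraries lay below the median of the other libraries of their time, with a median of 34. At each time the guanylurea libraries of all 77 members overlapped with the others, and 0 members were separated. The same share over all genes is not given here, so the overlap is not read as a trait of the members. In the fit over all libraries of guanylurea against the mean of the other 3, which is the contrast the rule used, 50 of 77 members were called lower, where 0.49% of all 18145 genes tested were called lower. Nothing is read from that count.

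**Figure D1:**
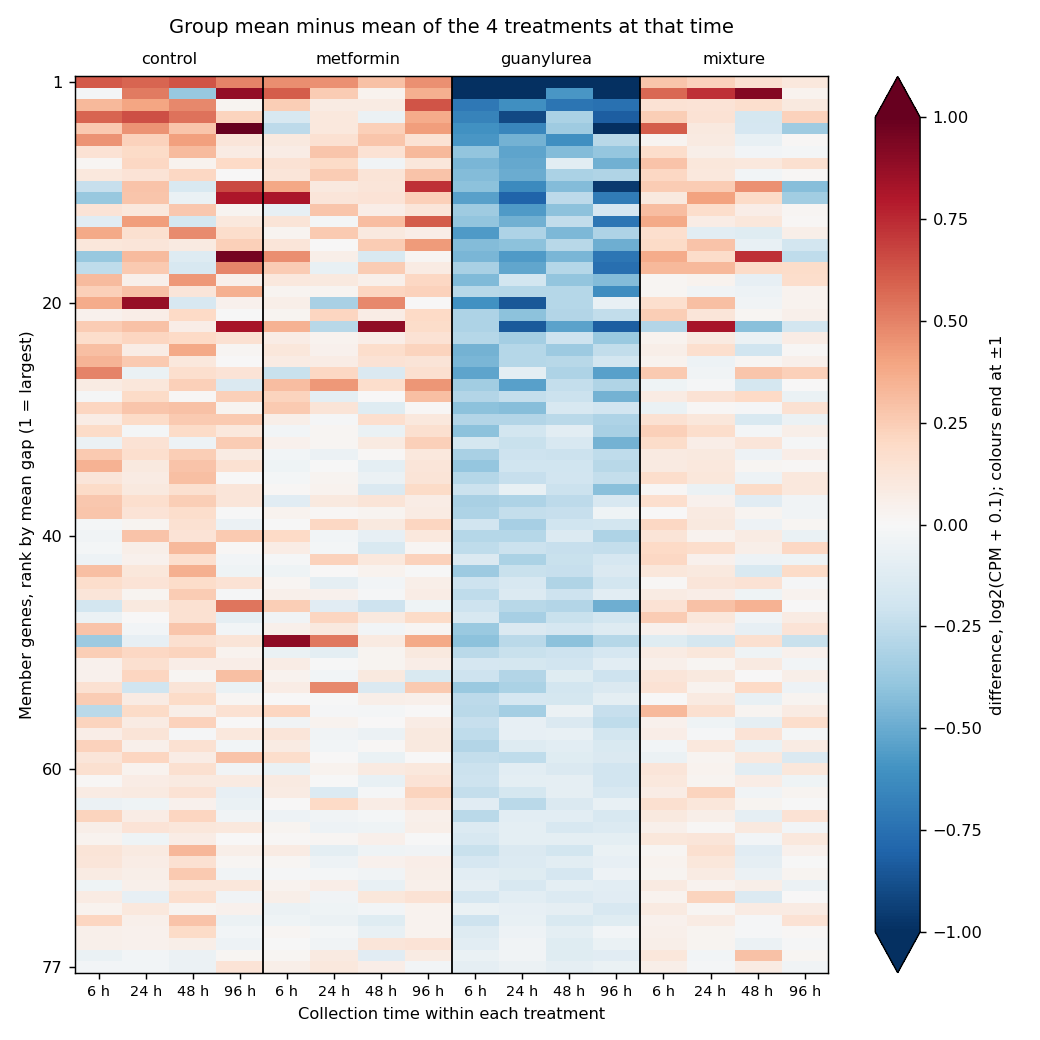
Group means of the 77 member genes (rows, ordered by mean gap, largest at the top) in the 16 groups (columns), as the difference on the log2(CPM + 0.1) scale from the mean of the 4 treatments at that time. The guanylurea columns are blue for every gene because the rule chose them, and the colour pales down the list as the gap falls from 1.38 to 0.04.

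At the edge of the rule the difference between member and non-member was minute. The members of rank 71 and 72 by mean gap were lowest with guanylurea by 2.51e-05 at 48 h and by 0.000315 at 6 h on the log2 scale. The nearest genes outside the rule had gaps of -0.000213 at 6 h and -0.00131 at 24 h, where another treatment was just lower. In all, 328 genes were lowest with guanylurea at exactly 3 of the 4 times.

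FMg021927 had the largest gap, 1.38, and was an abundant transcript. In control livers its lowest, median and highest CPM were 368, 1116 and 1614 at 6 h, and 371, 1693 and 2285 at 24 h. At 48 h the control values were 636, 1229.5 and 6868, and at 96 h 337, 930.3 and 1369. The control median was thus at least 930.3 CPM at every time, and the highest library, at 48 h, stood several times above it. That library was 1 of the 9 of low agreement. With guanylurea the same 3 values were 107, 237 and 857 at 6 h, and 155, 339.9 and 902 at 24 h. They were 70.4, 511 and 1366 at 48 h, and 75.4, 303 and 933 at 96 h. The guanylurea median was therefore below the lowest control library at every time, while the highest guanylurea libraries reached into the control range.

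Metformin livers held FMg021927 at 397, 959 and 2198 CPM at 6 h, and at 481, 1111 and 3700 CPM at 24 h. They held 377, 1186 and 6270.0 CPM at 48 h, and 321, 1004 and 1657 CPM at 96 h. Mixture livers, which had the same guanylurea dose, gave 259, 751 and 8024 CPM at 6 h, and 525, 1184 and 1979 CPM at 24 h. They gave 366, 1176 and 2762 CPM at 48 h, and 185, 642 and 4283 CPM at 96 h. The mixture was the next lowest treatment at all 4 times, and its medians were above those of guanylurea alone at each. On the log2 scale the difference of guanylurea from the mean of the other 3 treatments was -1.81, -1.70, -1.43 and -1.41 at 6, 24, 48 and 96 h. Of the guanylurea libraries, 6 of 12, 6 of 11, 4 of 12 and 5 of 12 lay below the lowest of the 36 other libraries of their time. Below the median of those 36 lay 12 of 12, 11 of 11, 10 of 12 and 11 of 12.

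**Figure D2:**
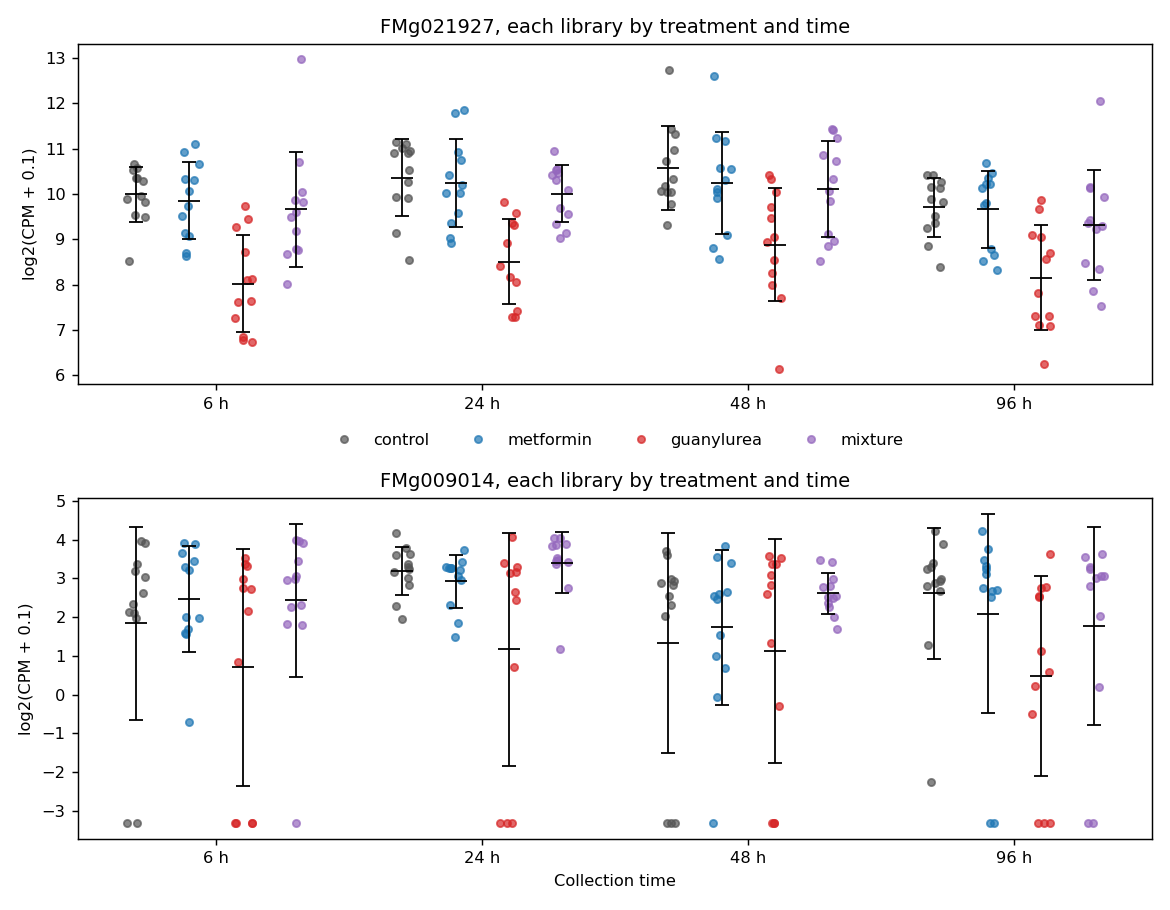
Level of FMg021927 (top) and FMg009014 (bottom) in each library, as log2(CPM + 0.1), by collection time and treatment, with the group mean and SD as black bars. For FMg021927 the guanylurea points sit low at every time with overlap, and for FMg009014 the points at the bottom edge of the panel are the 24 libraries with 0 counts.

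FMg009014, second by gap at 1.10, was a low gene with many libraries at 0. Its median over all libraries was 6.96 CPM. It had 0 counts in 24 libraries, of which 13 were guanylurea, 5 control, 3 metformin and 3 mixture. With guanylurea, 4, 3, 3 and 3 libraries were at 0 at 6, 24, 48 and 96 h. In control, 2, 0, 3 and 0 were at 0 at the same times. The guanylurea medians were 5.46, 6.15, 6.45 and 1.75 CPM, with the highest library at 11.5, 16.6, 11.9 and 12.3. The control medians were 5.51, 9.57, 6.41 and 7.69 CPM, so at 48 h the guanylurea median was the higher. Metformin medians were 6.57, 9.36, 5.61 and 7.62 CPM, and mixture medians were 7.75, 11.2, 5.68 and 8.09 CPM. Guanylurea libraries below the median of the others numbered 8 of 12, 9 of 11, 5 of 12 and 11 of 12. With group medians in place of means the gene was no longer a member. With a pseudocount of 1 it was still a member, with a gap of 0.62.

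Of the 77 members, 5 (6.49%) had any library at 0, against 5.31% of the 13519 genes. In 3 members, those of rank 2, 5 and 49, 20 or more libraries were at 0. Over those 3, 33.3% of guanylurea values were 0, against 18.8% in control, 16.7% with metformin and 18.8% in the mixture. These shares describe genes that the rule chose for low guanylurea means, to which zeros contribute.

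The members did not vary as 1 group. Within treatment and time groups, with each group mean removed so that the values the rule used were gone, the median Pearson r over 2926 pairs of members was 0.118 across all libraries. Over all pairs of the 13519 genes it was 0.118 as well. Pairs above an r of 0.5 made up 8.85% among members and 5.66% among all genes, and 5.91%, 4.23% and 12.3% in the lists lowest in control, metformin and mixture. These correlations share the libraries and their depth and are given as a description. Joining members by average linkage at an r of 0.4, a limit chosen with the values known, gave 10 sets of at least 2 genes, and 12 members stayed alone. The 4 largest sets held 24, 10, 9 and 8 members, with a median r within the set of 0.48, 0.82, 0.50 and 0.49.

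**Figure D3:**
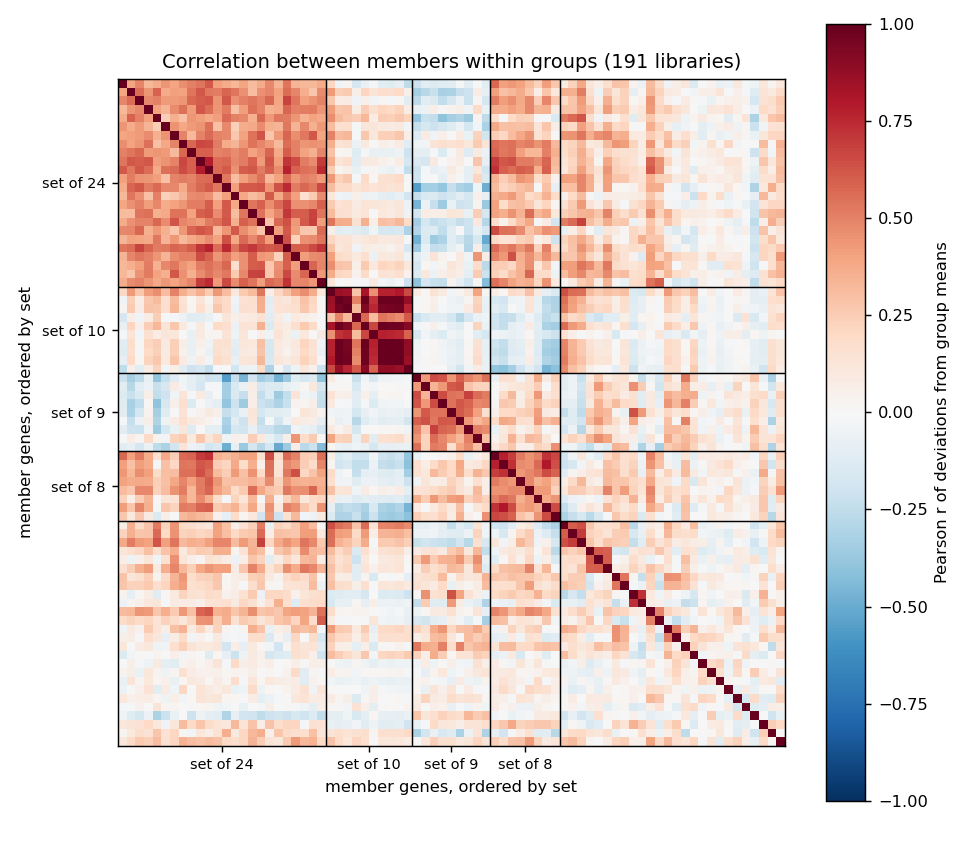
Pearson r between member genes over all libraries after subtracting each group's mean (both axes, the 77 members ordered by set, with lines around the 4 largest sets). The set of 10 that includes FMg021927 is the darkest block, with a median r of 0.82, against 0.48 to 0.50 in the other 3.

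The set of 10 was the tightest and held FMg021927. Its other members had ranks 7, 9, 12, 21, 27, 39, 42, 47 and 63, and their r with FMg021927 was 0.86, 0.84, 0.29, 0.82, 0.46, 0.77, 0.77, 0.80 and 0.66 in that order. Library medians over the set ran from 2.25 to 873 CPM, values that are read support and not levels per transcript length, since the files give no gene length. Libraries high in FMg021927 were high in other genes of the set. In mixture library 12 of 6 h, where FMg021927 reached 8024 CPM, the members of rank 7, 9, 12 and 21 stood at 2138, 1851, 21.5 and 6750 CPM. In control library 12 of 48 h, FMg021927 was at 6868 CPM and those members at 1172, 685, 13.8 and 4172 CPM. That control library was 1 of the 9 of low agreement. Of all 13519 genes, 13 others had an r above 0.5 with FMg021927, of which 11 were members and 2 were not. Some of those 11 lie outside the set of 10, so counts without the set still hold genes that vary with FMg021927. The 2 non-members lay below the mean of the other treatments with guanylurea at all 4 times as well. Their median differences were -0.20, -0.29, -0.25 and -0.07. Genes that vary together in this way are not independent observations.

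Several members carried consecutive identifier numbers. There were 9 such pairs with 15 members, or 19.5% of the list. In the lists lowest in control and metformin there were 0 such genes, in the mixture list 10.8%, and in the list highest with guanylurea 5.86%. In the set of 10, the members of rank 27, 39 and 21 and FMg021927 formed a run of 4 consecutive numbers, and neighbours in the run had r of 0.78, 0.98 and 0.82. The set also held the pair of rank 63 and 7 with an r of 0.87 and the pair of rank 12 and 47 with an r of 0.48. Over the 9 pairs the median r was 0.68 and 6 were above 0.5, against a median of 0.20 over all 8058 consecutive pairs among the 13519 genes, 14.0% of them above 0.5. What the order of identifiers follows is not given in the sources used here. RSEM, the counting tool, divides reads that match several genes among them, so counts of near-identical copies, which could not be checked without sequence, are uncertain.

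To describe the pattern across times, genes were picked as lowest with guanylurea at 3 times, and the remaining time was examined alone. Of 122 genes picked without 6 h, 63.1% were also lowest with guanylurea at 6 h, where 23.8% of all genes were. Without 24 h the share was 50.3% of 153 genes, against 10.4% of all genes. It was 33.2% of 232 genes without 48 h, against 8.50%, and 59.7% of 129 genes without 96 h, against 18.8%. The share was above that of all genes at each time. A picked gene that was also lowest at the time left out is a member by definition, so these were the same 77 genes each time. Only the number of picked genes differed. The shares thus restate the count of 77 against the number picked. They are neither a fresh test nor separate replications of the pattern. On the same column-total scale the exercise gave shares closer to those of all genes for the other treatments. For control the shares were 25.3%, 44.9%, 13.4% and 42.7%, where 17.8%, 55.6%, 11.9% and 59.9% of all genes were lowest. For metformin they were 32.0%, 32.7%, 18.8% and 18.1%, against 35.5%, 23.6%, 17.0% and 9.63%. For the mixture they were 33.6%, 16.2%, 49.3% and 12.2%, against 22.9%, 10.4%, 62.6% and 11.7%. With TMM scaling the guanylurea shares were 49.9%, 56.7%, 37.2% and 52.1%, where 24.1%, 25.9%, 21.5% and 27.9% of all genes were lowest. Shares for the other treatments were not computed with TMM. On that scale the full rule gave metformin 103 genes against a product of 39.4, and the mixture 124 against 48.1. Control had 92 against 71.0, and guanylurea 190 against 50.7. The nearness to all genes is therefore not shown for the other treatments with TMM.

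**Figure D4:**
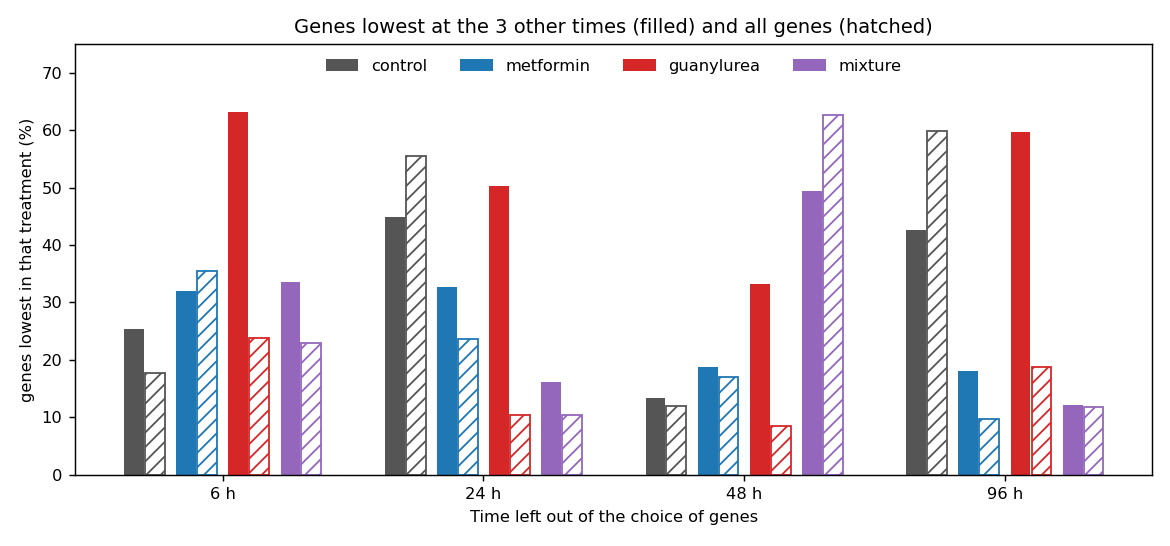
Percent of genes that were lowest in a treatment at the time left out (x axis), among genes lowest in that treatment at the other 3 times (filled bars) and among all 13519 genes (hatched bars). The guanylurea bars stand at 63.1%, 50.3%, 33.2% and 59.7% over hatched bars of 23.8%, 10.4%, 8.50% and 18.8%, and the control bars at 24 and 96 h and the mixture bar at 48 h are below their hatched bars.

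Single genes rarely passed a test at the time left out. In edgeR's quasi-likelihood test of guanylurea against the mean of the other 3 treatments, fitted on the libraries of 1 time with Benjamini-Hochberg adjustment over all genes, 0 of 122 genes were called lower at 6 h, where 0.0% of all genes were. At 24 h 1 of 153 was called lower, against 0.0183% of all genes, at 48 h 0 of 232, against 0.0%, and at 96 h 0 of 129, against 0.0304%. The gene called at 24 h was FMg021927, with a difference of -1.71 on the log2 scale (SE 0.32, adjusted p = 0.0063). Its differences in the fits of 6, 48 and 96 h were -1.74 (SE 0.41), -1.43 (SE 0.41) and -1.32 (SE 0.38), with adjusted p from 0.109 to 0.498, and the gene is named for its gap over all 4 times, so these values are not independent of its choice. Limma voom called 1, 1, 0 and 3 of the picked genes lower at the 4 times. Of all genes it called 0.0062%, 0.0061%, 0% and 0.0669% lower. In these fits all genes are the 16112, 16416, 16608 and 16436 tested at 6, 24, 48 and 96 h. The picked genes came from the 13519, so the shares set side by side have unlike bases. At an unadjusted p under 0.05 in edgeR, 31 of 122 genes (25.4%) were lower at 6 h, where 2.3% of all genes were. The count was 50 of 153 (32.7%, all genes 3.39%) at 24 h, 38 of 232 (16.4%, all genes 2.61%) at 48 h and 39 of 129 (30.2%, all genes 7.88%) at 96 h. Genes that vary together are counted here side by side. Without the set of 10, the shares were 26.8%, 28.0%, 15.8% and 30.3%. Other members that vary together stayed in these shares. All 77 members were in the picked list at every time, so the 4 lists overlap and the shares are a description. By the rule those members were also lowest with guanylurea at the time left out, so the shares are no fresh test of them. In these fits, which use TMM, the median difference of the picked genes was -0.27, -0.20, -0.15 and -0.22. The median of all genes was 0.01, -0.00, -0.01 and -0.00. On the column-total scale that picked the genes, their median was -0.26, -0.11, -0.07 and -0.15. There all 13519 genes had medians of -0.00, 0.11, 0.08 and 0.08.

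A change over time common to all treatments is a measure the rule did not use. From 6 to 96 h, averaged over the 4 treatments, 19 of 77 members fell and 10 rose in edgeR's quasi-likelihood test. Of all genes tested 14.3% fell and 15.0% rose, beside 24.7% and 13.0% of the members. Of the 19 that fell, 9 belong to the set of 10 that vary together, and of the other 67 members 10 fell, or 14.9%, which is near the share of all genes. The 19 fell by a median of 0.91 on the log2 scale (range of the change -1.70 to -0.26), 8 of them 2-fold or more. The 10 rose by a median of 0.47 (range 0.18 to 0.61). Without the guanylurea libraries 19 members fell and 8 rose, where 13.6% and 13.5% of all genes tested did. From 6 to 24 h 5 members were called, 1 higher and 4 lower, where 7.15% of all genes were called. From 24 to 48 h 2 were called, where 2.01% of all genes were. From 48 to 96 h 10 members fell, where 5.21% of all genes did, and 4 rose, where 5.67% did.

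The 10 members that fell from 48 to 96 h were the members of the set of 10. Their median change was -0.84 (range -1.12 to -0.71). From 6 to 96 h 9 of those 10 fell, and the median of the set was -1.11. FMg021927 was the exception over the whole course. Over all treatments its lowest, median and highest CPM were 107, 734 and 8024 at 6 h, and 155, 974 and 3700 at 24 h. They were 70.4, 1066 and 6868 at 48 h, and 75.4, 657 and 4283 at 96 h. It fell from 48 to 96 h (log2 change -0.78, SE 0.22, adjusted p = 0.0107 by edgeR), and its change from 6 to 96 h was -0.26 (SE 0.22, adjusted p = 0.395). The call from 48 to 96 h was lost with limma voom (-0.60, adjusted p = 0.0532) and without the 9 libraries of low agreement (-0.64, adjusted p = 0.0663), where the other 9 members of the set still fell. In the remaining large sets, the set of 24 had 4 members that rose and 0 that fell from 6 to 96 h, the set of 9 had 3 that fell and the set of 8 had 3 that rose. Of all genes tested 15.0% rose and 14.3% fell over that span. Genes of a set vary together, so these small counts are not read as traits of the sets.

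**Figure D5:**
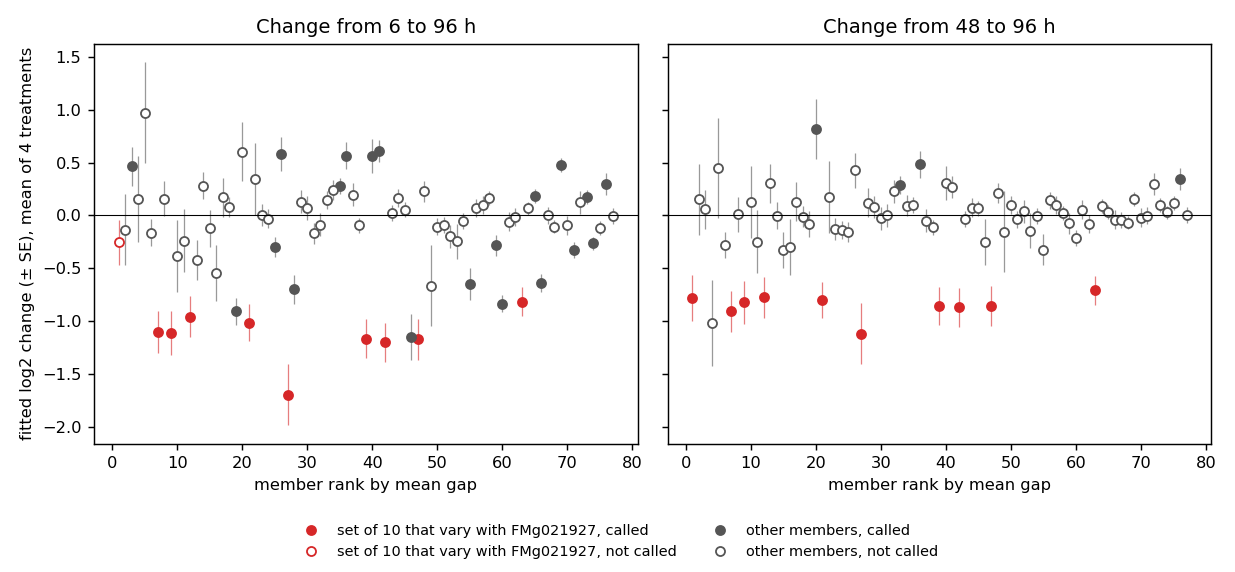
Fitted log2 change of each member from 6 to 96 h (left) and from 48 to 96 h (right), averaged over the 4 treatments, with SE bars, against the member's rank by mean gap. Filled points passed an adjusted p of 0.05, and red marks the set of 10, of which 9 fell over the whole course and 10 over the last interval.

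FMg024132, rank 69 by gap, had the smallest p among the members that rose. Its lowest, median and highest CPM over the libraries of a time were 9.75, 19.8 and 36.7 at 6 h, and 15.1, 20.6 and 33.5 at 24 h. They were 5.91, 26.6 and 49.5 at 48 h, and 21.7, 28.7 and 40.4 at 96 h. The step between 24 and 48 h passed the test by itself (0.28, adjusted p = 0.0082), and the ranges of neighbouring times overlapped throughout. From 6 to 96 h it rose by 0.48 on the log2 scale (SE 0.06, adjusted p = 7.76e-10 by edgeR). FMg025357, rank 41 with a mean gap of 0.19, was low. Its values were 0.80, 1.66 and 3.30 CPM at 6 h and 0.417, 1.93 and 3.92 CPM at 24 h. It stood at 0.149, 2.16 and 4.44 CPM at 48 h and at 0.805, 2.54 and 5.40 CPM at 96 h. Its median was higher at each successive time within wide ranges, and the rise from 6 to 96 h was 0.61 (SE 0.10, adjusted p = 7.41e-07 in the same test).

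Metformin and the mixture were compared with control in contrasts that hold no guanylurea library, though those libraries share in the estimate of spread. Averaged over times, 0 of 77 members were called for metformin against control in edgeR, DESeq2 or limma voom, where edgeR called 0.0882% of all genes. Without adjustment, at p under 0.05 in edgeR, 11 members (14.3%) were lower with metformin, against 5.96% of all genes, and 1 was higher, against 4.97%. The median difference was -0.11 (quartiles -0.15 to 0.01), and 57 of 77 members lay below control (74.0%, against 52.3% of all genes). The size of this lean depended on the tool. Limma voom, without adjustment, had 26 members lower and 1 higher, where 1210 and 1208 of all 18145 genes were. In it 67 members lay below control, where 49.0% of all genes lay above. For the mixture against control 0 members were called by any of the 3 tools, where edgeR called 0.0386% of all genes. Without adjustment 9 members (11.7%, all genes 4.41%) were lower and 0 higher (all genes 1.8%). The median was -0.07 (quartiles -0.14 to 0.00), and again 57 of 77 lay below control (all genes 53.6%). Limma voom had 13 members lower and 0 higher for the mixture, where 482 and 452 of all genes were, and 57 below control. These 2 comparisons share the control libraries. The rule also did not treat the other 3 treatments alike, because on total-count CPM control was the lowest treatment for most genes at 24 and 96 h. Members needed a control mean above guanylurea at those times as well, which can favour genes high in control. At 48 h the mixture was lowest for most genes, which can favour genes high in the mixture. The lean of members below control is not taken as independent of the rule, and its cause was not tested.

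Mixture and metformin, compared directly, gave 0 called members with each tool, where edgeR called 0.0% of all genes, and without adjustment 1 member was lower and 1 higher, where 5.87% and 3.53% of all genes were. The median difference was 0.02. The 95% interval of a member's difference lay within 2-fold for 74 of 77 members in each of the 3 comparisons, and within 1.5-fold for 65, 65 and 67, so for the rest the interval does not exclude a change of that size. In direction alone the sets differed in where they lay against control, though no member was called. All members of the set of 24 were below control with metformin and with the mixture, with medians of -0.14 and -0.14. Of the set of 10, 8 lay above control with metformin and 9 with the mixture, with medians of 0.15 and 0.17. Genes of a set vary together and both comparisons share the control libraries, so these directions are not independent observations. FMg021927 itself stood at -0.09 (SE 0.22) with metformin and -0.19 (SE 0.22) with the mixture, neither past the test (adjusted p = 0.934 and 0.985 in edgeR).

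The change from 6 to 96 h did not pass a test of difference from the control's own change in any member. For metformin 0 of 77 were called in edgeR, DESeq2 or limma voom, where edgeR called 0.419% of all genes, and without adjustment 3 were lower and 0 higher (all genes 5.41% and 3.71%). For the mixture 0 were called by the 3 tools, where edgeR called 0.667% of all genes, and again 3 were lower and 0 higher without adjustment (all genes 5.11% and 5.1%). The medians of these differences in change were -0.10 and -0.20 in edgeR, where those of all genes were 0.02 and 0.01. Negative differences made up 66.2% and 76.6% of members, against 47.9% and 48.6% of all genes. In limma voom the members' medians were -0.01 and -0.13. Both comparisons share the control libraries, and the cause of this lean was not tested. The 95% interval of a member's difference in change lay within 2-fold for 46 and 44 of the 77 members. For the others, differences of 2-fold were within the error.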

How the data were processed

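Libraries of male liver RNA were stranded and mRNA-selected, as the labels' protocols state. Expected counts per gene and per transcript were deposited by the authors, all of them whole and none scaled for depth. RSEM 1.3.1 and Bowtie2 2.3.5, after bcl2fastq 1.8.4, appear in the submitters' processing notes. Genome build, annotation and strand setting: not given in the sources used here. No column was left unused.

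The 77 genes, the lists set beside them, the tests and the rule for printed identifiers (the 2 largest mean gaps, and the 2 smallest p among genes that rose from 6 to 96 h) were chosen with earlier results of these data known. Identifiers carry no names, so other members are given by rank.

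Group means of log2(CPM + 0.1) chose the members. Tests used the rounded counts, which rounding left as they were, in edgeR 4.0.16 (R 4.3.3): filterByExpr (minimum count 10, minimum total 15), TMM, a mean per group over all libraries, a robust quasi-likelihood fit and Benjamini-Hochberg adjustment over all genes tested (18145 in that fit), with a threshold of 0.05. Fits of a time left out used that time's libraries alone. Alternatives were DESeq2 1.42.0, limma 3.58.1 (voom, quality weights), DESeq2 size factors, no filter, a replicate block and library subsets. The scripts were tested on simulated data. Depth of 12663443 to 27969948 counts per library limits the precision of low genes.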

Additional observations from a re-analysis of the deposited data

How the results depend on the processing

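Both the number and the identity of the members depended on the settings. The count of 77 became 190 with TMM library sizes, 78 with a pseudocount of 1 (73 shared), 72 with group medians (42 shared), 91 or 57 with a median CPM of at least 0.1 or 5, and 115 without the 9 libraries of low agreement. Leaving out 1 replicate number from every group gave 49 (without number 2) to 92 genes, 45 to 64 of them shared. The transcript table gave 97 of 15964 transcripts. Over 17 alternatives with gene counts, 22 members were kept in every one, 65 in at least 0.5 of them and 12 in fewer. Of these alternatives, 12 left out a replicate number and so shared most libraries. The median CPM of at least 0.1 was also among them and could drop no member. Of the 20 largest gaps 8 were kept in every one. The median CPM of at least 5 was not among these 17. It kept 57 of the 77 and dropped members below that level, some of them counted here as kept in every one. The share of genes picked without 6 h that were lowest at 6 h was 63.1%, and 49.9% with TMM. The cause of these shifts was not tested.

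Counts of members called changed by over 1.5 times in few cases. The change from 6 to 24 h gave 5 calls (7.15% of all genes), and 8 with the replicate number as a block (6.99%). The change from 24 to 48 h gave 2 (2.01%), and 1 without the guanylurea libraries (0.673%). For guanylurea at the time left out, each gene called was lower, and brackets give the share of all genes called lower. At 6 h there were 0, and 1 with limma voom (0.0062%). At 24 h there was 1, with 2 without the filter (0.0239%) and 2 without the libraries of low agreement (0.0244%). At 48 h there were 0, with 4 without the filter (0.0277%) and 1 without those libraries (0.012%). At 96 h there were 0, with 1 without those libraries (0.0606%) and 3 with limma voom (0.0669%). From 48 to 96 h, 1973 of all genes were called, and 804 without those libraries. The gap of FMg009014 went from 1.10 to 0.63 with group medians, and the gene was then no longer a member. That shift is less than its within-group SD, which is a spread of single libraries and a wide yardstick for group values. The loss of a call for FMg021927 is given with its time course.

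Libraries with the same replicate number were only slightly more alike than those with different numbers. Deviations from group means of libraries with the same number had a median r of 0.0147, and 26.4% of 1425 pairs exceeded 0.1, against a median of -0.00633 and 21.3% of pairs for different numbers. Under the block 33 members were called from 6 to 96 h (29 without), where 29.5% of all genes were (29.3% without). From 48 to 96 h 16 members were called under it (14 without), and 10.6% of all genes (10.9% without). Counts over all genes fell from 16 to 0 for metformin against control, 7 to 0 for the mixture, and 76 to 4 and 121 to 14 for their differences in time change, with 0 members called in either fit. Other alternatives gave 3 to 38, 0 to 30, 0 to 134 and 0 to 173 calls.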
